A study of Mus musculus with 16 samples.

Results

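The genes described here are Tgfb3, Csf1, Angptl2 and Timp2, which encode secreted proteins that act on extracellular matrix, fibroblasts or macrophages. They were found by exact gene symbol in the authors' deposited tables of probe sets that differed at least 2-fold between infarction and sham operation. All 4 were in the table for myosin-specific cells, so they were chosen by their fold and p-value in that contrast, which is given below as a description with no test. They are 4 of the 269 genes that the deposited tables name, and the tables name 1 probe set for each, of 41345 on the array. Other probe sets of these genes may lie among those the tables do not name.

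The samples were CD4+ T cells sorted 7 days after surgery from mediastinal lymph nodes, which receive lymph from the heart; the mice were male BALB/c aged 8 to 12 weeks. In the operated mice the left anterior descending artery was tied off (infarction) or the chest was opened with the artery left untied (sham), and all were given buprenorphine for pain. The day before surgery every mouse, sham-operated mice included, had received CD4+ T cells from naive TCR-M donors, whose transgenic T cell receptor recognises cardiac myosin. These transferred cells, marked by Thy1.1, are called TCRM, and the recipients' own Thy1.2 CD4+ T cells from the same animals are called ENDO. TCRM cells thus carry a single engineered specificity and entered an otherwise normal host, while ENDO cells hold the host's mixed repertoire. If each array of a population is from 1 animal, the design gives 5 infarcted and 3 sham-operated animals. The labels do not say which arrays share an animal. The limma p-values rest on 1 spread pooled over the TCRM and ENDO arrays, taken as independent. They do not measure the spread between the ENDO arrays alone, which the permutation tests use. There were 5 TCRM infarction, 3 TCRM sham, 5 ENDO infarction and 3 ENDO sham arrays. Sorting purity was above 98% per the labels.

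Transforming growth factor beta 3 (Tgfb3) is 1 of the TGF-beta ligands, which are secreted in a latent form, are released from it by integrins or proteases, and signal through SMAD proteins to control matrix production and T cell differentiation. Macrophage colony-stimulating factor (Csf1) binds the receptor Csf1r and sustains the survival and growth of monocytes and macrophages. Angiopoietin-like 2 (Angptl2) is a secreted glycoprotein linked to inflammation and tissue remodelling. Tissue inhibitor of metalloproteinase 2 (Timp2) blocks matrix metalloproteinases and also takes part in the activation of pro-MMP2 at the cell surface. In an infarcted heart, macrophages clear dead tissue and fibroblasts lay down scar matrix, and factors of these kinds act on both steps.

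Promoters are shown because the 4 genes were all higher in the same cells. RefSeq (GRCm38.p6) gave a promoter for 3 of the 4 genes, and the 250 bases upstream of each transcription start are printed 5′ to 3′ on the gene's strand. Capitals mark matches to any of 8 motifs searched on both strands (TGANTCA for AP-1, CAGACA for SMAD, GGAAAA for NFAT, ACGTG for the hypoxia response, TATAAA for the TATA box, TGCTGA for MAF, GGGCGG for the GC box, and the NF-kB motif). Csf1 lies at chr3:107760470-107760719 (minus strand), Angptl2 at chr2:33215711-33215960 (plus strand) and Timp2 at chr11:118355412-118355661 (minus strand).
Csf1: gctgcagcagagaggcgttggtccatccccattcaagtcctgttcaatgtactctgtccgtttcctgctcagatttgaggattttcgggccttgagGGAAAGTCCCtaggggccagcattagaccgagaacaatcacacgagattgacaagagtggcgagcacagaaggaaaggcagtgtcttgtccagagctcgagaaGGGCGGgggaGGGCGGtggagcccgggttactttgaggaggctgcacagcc
Angptl2: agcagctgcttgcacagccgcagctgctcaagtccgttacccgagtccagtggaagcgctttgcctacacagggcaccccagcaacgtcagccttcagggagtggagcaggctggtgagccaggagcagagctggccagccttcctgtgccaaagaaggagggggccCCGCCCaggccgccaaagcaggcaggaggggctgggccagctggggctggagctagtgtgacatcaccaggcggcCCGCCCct
Timp2: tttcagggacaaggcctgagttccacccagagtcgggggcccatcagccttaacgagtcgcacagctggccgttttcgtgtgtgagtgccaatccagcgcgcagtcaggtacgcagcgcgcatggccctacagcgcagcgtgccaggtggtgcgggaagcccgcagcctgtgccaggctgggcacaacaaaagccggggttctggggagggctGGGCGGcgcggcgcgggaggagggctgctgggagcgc
The Csf1 window held a match to the NF-kB motif, the binding pattern of a factor family active in stimulated lymphocytes, with its first base 154 bases before the start. That motif occurs in 1.41% of 32851 promoter windows of the same length. GC boxes, bound by Sp1-type factors, occurred 2 times in Csf1, 2 times in Angptl2 and 1 time in Timp2, and 32.7% of all windows hold at least 1. The other 6 motifs had no match in these windows. GC content was 56.4% for Csf1, 66.8% for Angptl2 and 68.0% for Timp2, against a median of 52.4% over all windows. A match is a description of letters and was not tested against the array signal.

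Values are the authors' log2 signal. Median signal lay between 5.37 and 5.43 on TCRM arrays and between 5.61 and 5.79 on ENDO arrays, and the lowest signal was 1.47 to 1.74 and 2.27 to 2.37. The populations were thus on different scales, and levels were not tested between them. Each array's mean correlation with its own population ran from 0.935 to 0.968 (TCRM) and from 0.824 to 0.931 (ENDO), with ENDO infarction array 5 the lowest. The source names of both arrays titled infarction 5 say sham. With groups from the titles, both averages in the authors' table were matched within 0.01 for 4 of the 4 genes, and with groups from the source names for 0 of 4, so the titles were used. Of 85 marker genes of T cells and other cell types listed for this work, 4 had a named probe set (Trat1, Cd22, Prdm1 and Nkg7). Cd4, the Cd3 genes and the macrophage, dendritic, stromal, endothelial, neutrophil and platelet markers were not analysed here, so the labelled cell type could not be checked against them.

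In TCRM cells all 4 genes were higher after infarction than after sham operation, by 2.37 (Angptl2), 2.28 (Csf1), 1.72 (Tgfb3) and 0.97 (Timp2) on the log2 scale. In ENDO cells none of the 4 passed the test, and their differences lay between -0.10 and 0.26. None of the 4 was in the authors' 2-fold table for ENDO cells, which came from the same ENDO arrays. Not passing there was thus likely in advance and is no independent result, and the ENDO values are best read as sizes with intervals. In sorted bulk cells, a larger share of cells carrying a transcript and more transcript per cell cannot be told apart.

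**Figure D1:**
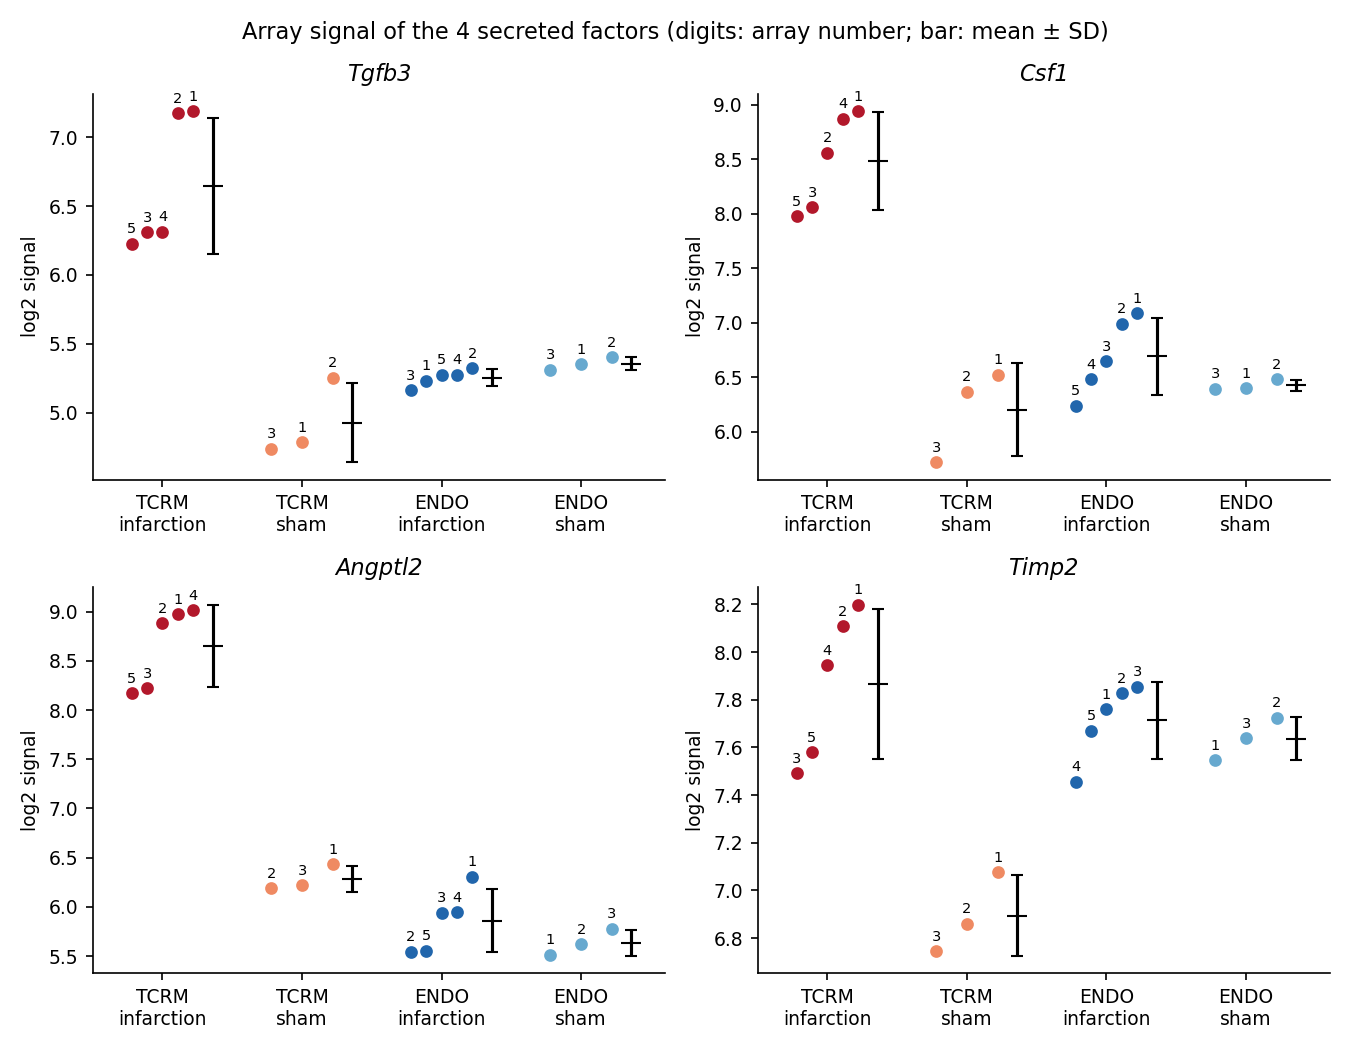
Log2 signal of Tgfb3, Csf1, Angptl2 and Timp2 (vertical axes) on each of the 16 arrays by group (horizontal axis). Points are arrays with their number, bars are the mean ± SD. The 5 TCRM infarction arrays lie above the 3 TCRM sham arrays for each gene, while ENDO infarction and sham arrays overlap.

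Tgfb3, the growth factor ligand, read 7.19, 7.18, 6.31, 6.31 and 6.23 on TCRM infarction arrays 1 to 5. It read 4.78, 5.25 and 4.74 on TCRM sham arrays 1 to 3. Infarction arrays 1 and 2 stood above the other infarction arrays, and the lowest infarction array was 0.97 above the highest sham array. The means were 6.64 ± 0.49 (SD, n = 5) for infarction and 4.93 ± 0.29 (SD, n = 3) for sham, a difference of 1.72 ± 0.22 (SE), or 3.29-fold. Sham arrays 1 and 3 lay just above the signal of 4.72 under which probe sets were left out of the test, and signal over background is not known, so the size of the Tgfb3 difference is uncertain. The authors' deposited table gives 2.87-fold, from averages of 6.29 and 4.76 that weight outlying arrays down.

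In ENDO cells Tgfb3 read 5.23, 5.32, 5.16, 5.28 and 5.28 after infarction and 5.35, 5.40 and 5.31 after sham operation. Of the 5 infarction arrays 4 lay below all 3 sham arrays, in a span of 0.24 over all 8. All 8 values lay below the lowest median signal of any ENDO array, 5.61, and signal over background is not known. The difference was -0.10 (95% interval -0.57 to 0.36, limma adjusted p = 0.926). From the 8 ENDO arrays alone the interval was -0.34 to 0.13, and the exact two-sided permutation test over 56 splits gave p = 0.0714, where 0.0357 is the smallest it can give. The SD of the ENDO infarction arrays was 0.06, against 0.49 for TCRM infarction arrays. The shared spread of the fit across all 16 arrays widens the ENDO interval. It also lowers the SE of the TCRM differences. From the 8 TCRM arrays alone the SE was 0.2731 (Tgfb3), 0.2754 (Csf1), 0.2245 (Angptl2) and 0.1826 (Timp2). In the shared fit it was 0.2174, 0.2558, 0.2192 and 0.1617.

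Csf1, the macrophage growth factor, read 8.94, 8.56, 8.06, 8.87 and 7.98 on TCRM infarction arrays 1 to 5. TCRM sham arrays 1 to 3 read 6.52, 6.37 and 5.72. The groups did not overlap, and the lowest infarction array was 1.45 above the highest sham array. Means were 8.48 ± 0.45 (SD, n = 5) and 6.20 ± 0.42 (SD, n = 3), a difference of 2.28 ± 0.26 (log2, SE) or 4.85-fold. Sham array 3 was the lowest of the 8, and without it the difference was 2.04.

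In ENDO cells Csf1 read 7.09, 6.99, 6.65, 6.48 and 6.24 after infarction and 6.40, 6.49 and 6.40 after sham operation. Infarction arrays 1, 2 and 3 lay above all sham arrays and infarction array 5 below them. The infarction arrays spread more widely (SD 0.35, n = 5) than the sham arrays (SD 0.05, n = 3). The difference was 0.26 (95% interval -0.28 to 0.81, limma adjusted p = 0.789), and the exact two-sided permutation p was 0.286. The upper end of that interval corresponds to 1.75-fold.

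Angptl2 read 8.98, 8.88, 8.22, 9.01 and 8.17 on TCRM infarction arrays 1 to 5 and 6.43, 6.19 and 6.22 on TCRM sham arrays 1 to 3. Its gap between the lowest infarction and the highest sham array, 1.74, was the widest of the 4 genes. Means were 8.65 ± 0.42 (SD, n = 5) and 6.28 ± 0.13 (SD, n = 3), a difference of 2.37 ± 0.22 (log2, SE) or 5.18-fold. The authors' deposited table gives 6.72-fold, with an infarction average of 8.96 that lies near arrays 1, 2 and 4. The difference was between 2.28 and 2.49 with each of the 16 arrays left out in turn.

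In ENDO cells Angptl2 read 6.31, 5.54, 5.94, 5.95 and 5.55 after infarction and 5.52, 5.62 and 5.78 after sham operation. Infarction arrays 1, 3 and 4 lay above the sham arrays, and arrays 2 and 5 lay among them. The difference was 0.22 (95% interval -0.25 to 0.69, limma adjusted p = 0.797), and the exact two-sided permutation p was 0.286.

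Timp2, the metalloproteinase inhibitor, read 8.20, 8.11, 7.49, 7.94 and 7.58 on TCRM infarction arrays 1 to 5 and 7.08, 6.86 and 6.75 on TCRM sham arrays 1 to 3. The gap between the groups, 0.42, was the narrowest of the 4 genes. Means were 7.86 ± 0.32 (SD, n = 5) and 6.89 ± 0.17 (SD, n = 3), a difference of 0.97 ± 0.16 (log2, SE) or 1.96-fold. In the authors' deposited table it stood just inside the 2-fold limit at 2.01-fold, the third lowest of 153 rises. The nearest probe set outside the table, which is unnamed, stood at the limit.

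In ENDO cells Timp2 read 7.76, 7.83, 7.85, 7.46 and 7.67 after infarction and 7.55, 7.73 and 7.64 after sham operation. Infarction arrays 1, 2 and 3 lay above all sham arrays and array 4 below them. The difference was 0.08 (95% interval -0.27 to 0.42, limma adjusted p = 0.924), and the exact two-sided permutation p was 0.464.

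**Figure D2:**
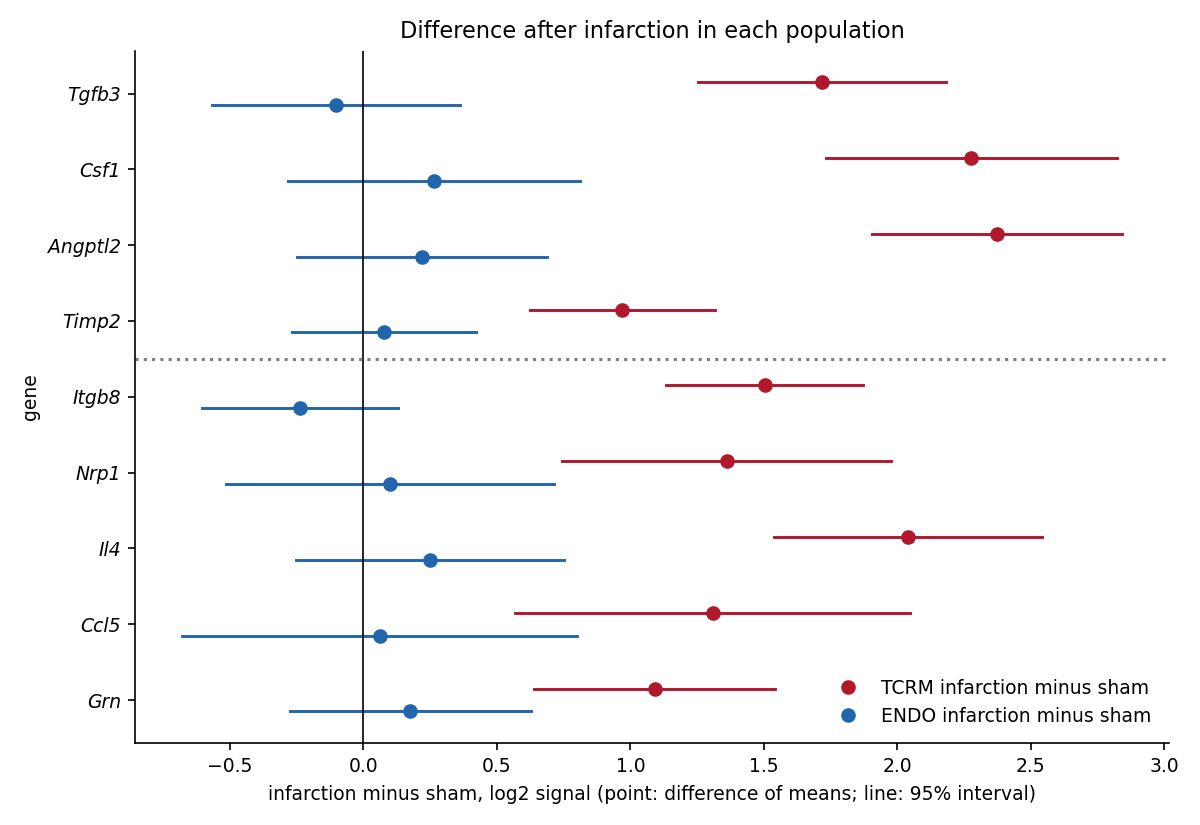
Infarction minus sham difference in log2 signal (horizontal axis) for the 4 secreted factors and, under the dotted line, 5 other named genes of their pathways (vertical axis). Points are differences of means and lines are 95% intervals from the fit to all 16 arrays, red for TCRM and blue for ENDO cells. All ENDO lines cross 0, while TCRM points run from 0.97 for Timp2 to 2.37 for Angptl2.

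Of 28941 probe sets tested in ENDO cells, 0.888% passed (limma, adjusted p under 0.05), and 0 of the 4 genes did. The median difference of the 4 genes was 0.15 there, against 0.00 over all tested probe sets. In TCRM cells the 4 genes are among the 0.667% of probe sets that passed as higher, and 5.64% of probe sets had every infarction array above every sham array. As this contrast chose the genes, those shares say nothing more about them. The TCRM response minus the ENDO response holds the same TCRM contrast and was not tested. It was 2.15 ± 0.31 (log2, SE) for Angptl2, 2.01 ± 0.36 for Csf1, 1.82 ± 0.31 for Tgfb3 and 0.89 ± 0.23 for Timp2. These SEs take the arrays as independent, and the subtraction takes a log2 step to mean the same on the scales of both populations.

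**Figure D3:**
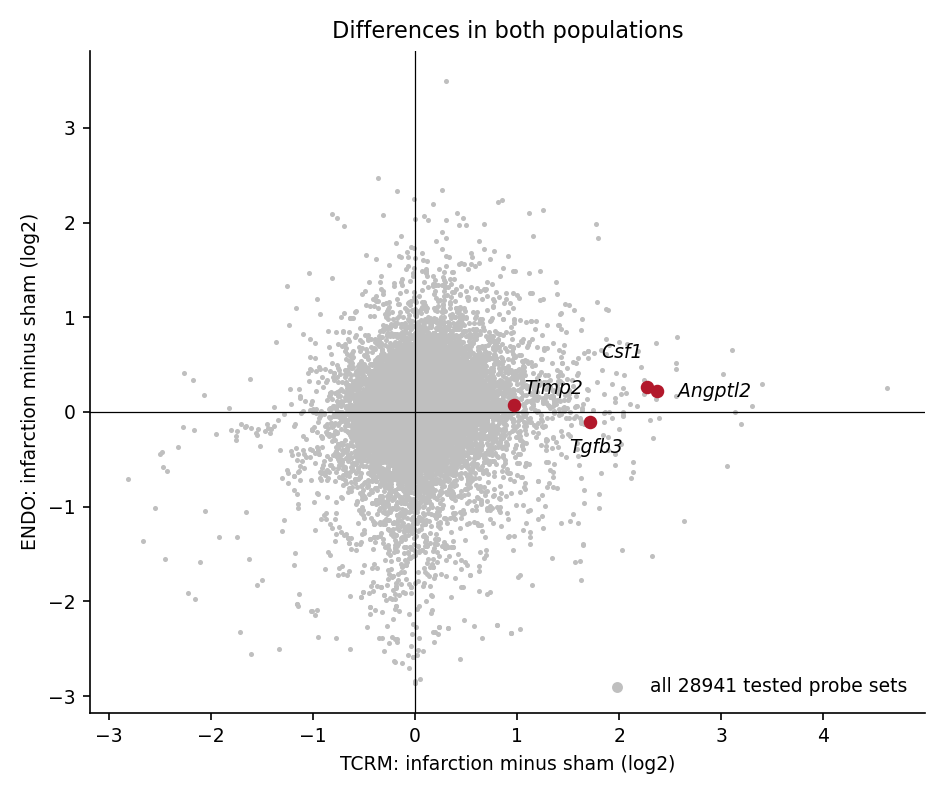
Infarction minus sham difference in log2 signal in TCRM cells (horizontal axis) and in ENDO cells (vertical axis) for the 28941 tested probe sets (grey) and the 4 genes (red). The 4 genes lie between 0.97 and 2.37 on the TCRM axis and between -0.10 and 0.26 on the ENDO axis.

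The rank of each gene within its own array gives its level relative to the other probe sets there, and was not tested. Ranks still depend on how the signals of an array are distributed. Timp2 read 7.67 at the 88.1st percentile on ENDO infarction array 5, and 7.76 at the 84.9th on array 1. Timp2 ranked between the 84.6th and 86.7th percentile on ENDO sham arrays and between the 83.8th and 88.1st on ENDO infarction arrays. On TCRM sham arrays it ranked between the 74.0th and 77.4th, below every ENDO array, and on TCRM infarction arrays between the 82.1st and 88.4th, overlapping both ENDO groups. For the other 3 genes the TCRM infarction arrays ranked above all arrays of the other groups.

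Csf1 ranked between the 86.0th and 93.3rd percentile on TCRM infarction arrays. Its other groups overlapped, at the 56.8th to 70.5th on TCRM sham, the 62.8th to 76.9th on ENDO infarction and the 66.3rd to 68.3rd on ENDO sham arrays. Angptl2 ranked between the 87.9th and 93.8th on TCRM infarction arrays and between the 65.6th and 69.3rd on TCRM sham arrays. Its ENDO arrays lay lower, at the 43.7th to 64.6th after infarction and the 45.2nd to 50.9th after sham operation, and did not reach the TCRM sham arrays. Tgfb3 ranked between the 65.6th and 78.4th on TCRM infarction arrays. Its other groups overlapped, at the 33.6th to 46.2nd on TCRM sham, the 36.9th to 42.2nd on ENDO infarction and the 38.4th to 43.5th on ENDO sham arrays.

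**Figure D4:**
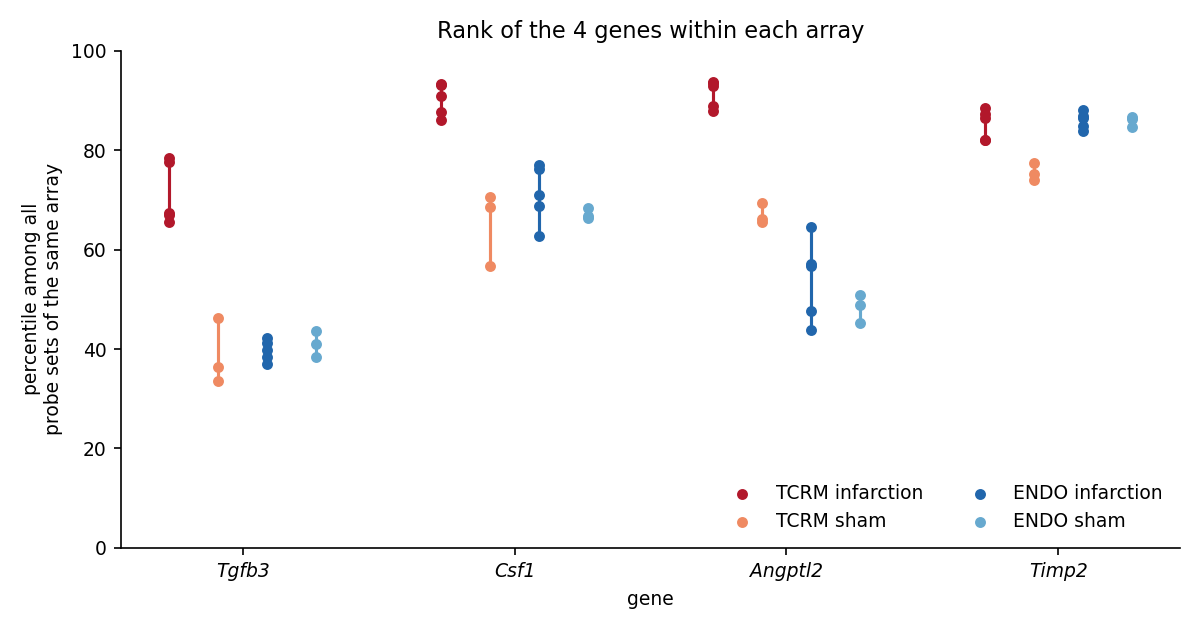
Percentile of each gene's signal among all 41345 probe sets of the same array (vertical axis) by gene (horizontal axis). Points are arrays, coloured by group, and lines join the lowest and highest array of a group. Timp2 on TCRM sham arrays, at 74.0 to 77.4, lies below all ENDO arrays, and on TCRM infarction arrays it overlaps them.

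Within TCRM infarction, arrays 1 and 2 lay above the group mean and arrays 3 and 5 below it for each of the 4 genes. Array 4 lay above the mean for Csf1 (by 0.39), Angptl2 (0.36) and Timp2 (0.08), while Tgfb3 was -0.33 from its mean there. After removal of the group means, the correlation over the 8 TCRM arrays was 0.92 between Angptl2 and Timp2, 0.87 between Csf1 and Timp2, and 0.86 between Csf1 and Angptl2. Tgfb3 correlated less with the others, at 0.72 with Timp2 and 0.53 with both Csf1 and Angptl2. Over the same arrays the median correlation of each gene with all other tested probe sets was between -0.01 and 0.04, and the 95th percentile was between 0.63 and 0.74. The values for Tgfb3 with Csf1 and Angptl2 lie inside that percentile. These correlations rest on 8 arrays, which may have been normalized together, and no test was made.

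In ENDO cells the same 6 correlations ran from -0.56 (Tgfb3 with Angptl2) to 0.52 (Csf1 with Timp2). The ENDO deviations of Tgfb3 were at most 0.09 in size. For Csf1 and Angptl2 ENDO infarction array 1 was the highest, by 0.40 and 0.45 above the mean, and array 5 deviated by -0.45 and -0.31.

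**Figure D5:**
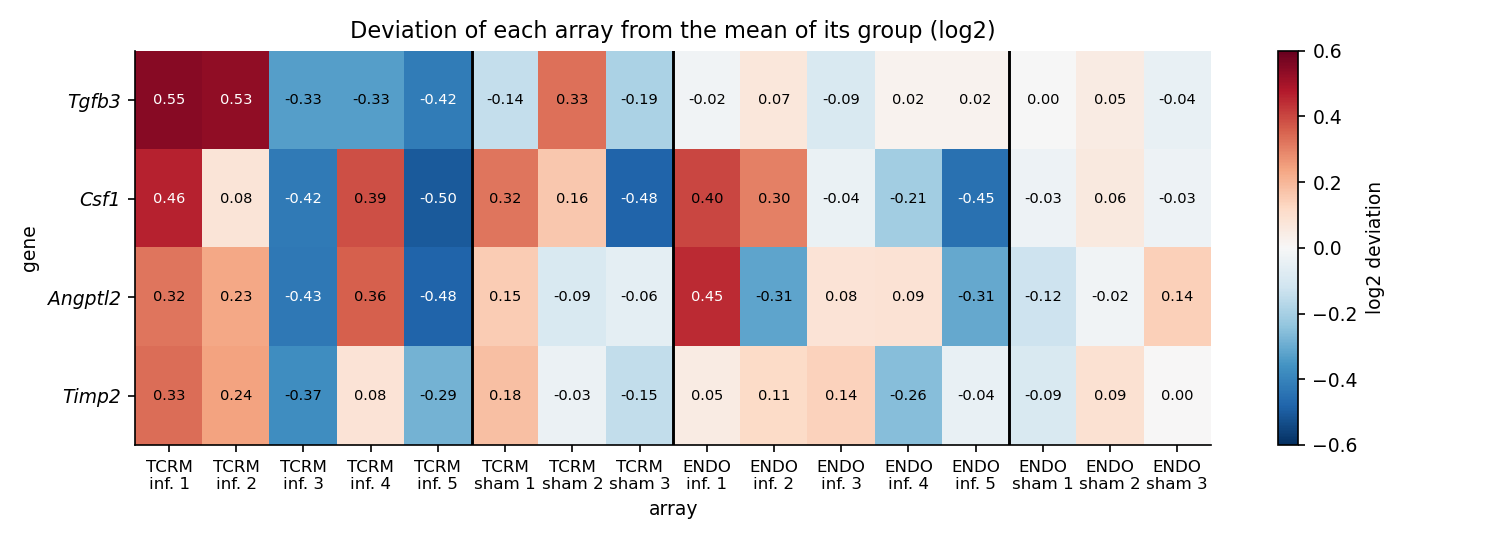
Deviation of log2 signal from the mean of the array's group for the 4 genes (vertical axis) on each of the 16 arrays (horizontal axis, inf. for infarction). Red is above and blue below the mean, and the value is printed in each cell. TCRM infarction arrays 1 and 2 are above the mean and arrays 3 and 5 below it for each gene.

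Among named probe sets, the genes whose signal over the 16 arrays was most like each of the 4, after removal of each population's mean, were ranked by Pearson correlation among 161 others. For Tgfb3 they were Fam43a (r = 0.98), Ptpn13 (0.96) and Coro2b (0.95). For Csf1 they were Eea1 (0.97), an endosome tethering protein, Stfa3 (0.97), whose identity is uncertain because it has closely similar paralogs, and Angptl2 itself (0.96). For Angptl2 they were Tigit (0.97), an inhibitory receptor of T cells, Osbpl3 (0.96) and Ptpn13 (0.96), and for Timp2 they were Eea1 (0.96), Ptpn13 (0.96) and Nrgn (0.95). All of these were listed by the authors for the same TCRM contrast, which the correlations hold. With the group means removed as well, Fam43a was still the most similar to Tgfb3 (0.91), and Ptpn13, Eea1 and Nrgn to Timp2 (0.84, 0.83 and 0.83). None of the 3 genes for Csf1 or for Angptl2 kept its place.

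Other genes of these pathways came from 8 lists of 154 genes on TGF-beta ligands, activation and targets, colony-stimulating factors, macrophage factors, angiopoietins, metalloproteinases and repair growth factors. Apart from the 4, 5 had a named probe set, all from the authors' TCRM table, so their TCRM values are descriptions too. Itgb8, the integrin subunit that with Itgav frees TGF-beta from its latent form, read 8.00, 7.76, 7.68, 7.79 and 7.14 on TCRM infarction arrays and 6.41, 6.15 and 5.95 on TCRM sham arrays, a difference of 1.503 ± 0.17 (log2, SE). In ENDO cells Itgb8 read 6.51, 6.18, 6.35, 6.52 and 6.08 after infarction and 6.52, 6.61 and 6.56 after sham operation. All 5 ENDO infarction arrays lay below the 3 sham arrays, as for 3.67% of all tested probe sets, and the difference of -0.24 did not pass (95% interval -0.60 to 0.13, limma adjusted p = 0.685).

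Neuropilin 1 (Nrp1), a co-receptor that binds TGF-beta, was higher by 1.36 ± 0.29 (log2, SE) in TCRM cells after infarction, and by 0.76 with groups taken from the source names. Il4, the cytokine that drives alternative macrophage activation, was higher by 2.04 ± 0.24, progranulin (Grn), a secreted growth factor, by 1.09 ± 0.21, and Ccl5, a chemokine for monocytes and T cells, by 1.31 ± 0.35. Ccl5 groups overlapped in 1 of 5 infarction arrays, and those of Nrp1, Il4 and Grn did not. Over all tested probe sets, 5.64% had every TCRM infarction array above every TCRM sham array. In ENDO cells the differences of these 4 genes were 0.10 (Nrp1), 0.25 (Il4), 0.18 (Grn) and 0.06 (Ccl5). Of the 5 pathway genes, 0 passed in ENDO cells in either direction (limma adjusted p from 0.685 to 0.979). Over all tested probe sets the share was 0.888%. None of the 5 was in the authors' ENDO table, so not passing was likely in advance.

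Of the named markers of other lymphocytes, Cd22 (a B cell receptor) was higher in TCRM cells after infarction by 1.17 ± 0.15 (log2, SE), Nkg7 (of cytotoxic cells) by 1.06 ± 0.24 and Prdm1 (of plasma cells and effector T cells) by 0.85 ± 0.19. Trat1, a T cell receptor adaptor, differed by -1.10 ± 0.27. These are 2 of 12 B and plasma cell genes, 1 of 9 CD8 and NK genes and 1 of 9 T cell genes, each named for the same TCRM contrast. Summed marker levels could not be formed from them, and their part in the differences of the 4 secreted factors was not tested. In ENDO cells the 4 markers had differences of 0.23 (Cd22), 0.49 (Nkg7), 0.26 (Prdm1) and -0.25 (Trat1). Of these, 0 of 4 passed (limma adjusted p from 0.482 to 0.815), against 0.888% of all tested probe sets. None of the 4 markers was in the authors' ENDO table, so not passing was likely in advance. All 5 ENDO infarction arrays lay above all 3 ENDO sham arrays for Cd22, Nkg7 and Prdm1, as for 3.02% of tested probe sets, and for 0 of the 4 secreted factors.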

How the data were processed

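Per the labels' protocols, RNA of sorted CD4+ T cells was preamplified and read on Affymetrix arrays. The submitters' processing notes name Affymetrix Expression Console as well as Transcriptome Analysis Console. Their versions, the summarisation and the build were not found: each is not given in the sources used here. The value table the authors deposited gives, for each of 16 arrays, the log2 signal of 41345 probe sets. Per the file headers, the deposited tables per population give bi-weight averages on the log2 scale, a fold and p-values for probe sets that differed 2-fold with p under 0.05, and they are the sole source of gene symbols. Decimal commas were read as points.

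The 30% of probe sets with the lowest mean over the arrays (log2 signal up to 4.72) were dropped before the fit, leaving 28941. With limma 3.58.1 (lmFit, eBayes; R 4.3.3) the 16 arrays were modelled together by their 4 group means, with two-sided p-values adjusted by the Benjamini-Hochberg method and a threshold of 0.05. All 4 genes passed the filter. Exact permutation tests used scipy 1.17.1 in python 3.11.15, and figures matplotlib 3.10.9. Tested on simulated data of 28941 probe sets, the fit called 64% of changes of log2 1 and 90% of changes of log2 2 in TCRM cells, and 70% and 80% in ENDO cells. It also called 0.049% of 28741 unchanged probe sets in TCRM cells and 0.310% in ENDO cells. The simulation drew independent normal noise, with an SD for each probe set and population and no array-wide differences in quality. The background share of 0.888% in ENDO cells may hold many false calls, but the simulation cannot give their number in the real arrays. Precision is limited by how few arrays each group has.

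The 4 genes and all lists were chosen with earlier results of these data known. Named were the 4 genes, the 3 most similar named probe sets of each (gene models, clones, small RNAs and receptor segments left out) and every named gene of the pathway and marker lists. Arrays with the same operation and number were checked for pairing: their deviations correlated between -0.09 and 0.08 over 8 pairs, so the number was not used as a block. Alternatives covered the filter, scaling, spread, weights, labels, replicate block, threshold and each array left out. A weight per population was chosen after seeing the data.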

Additional observations from a re-analysis of the deposited data

Results flagged for a closer look

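For Itgb8, all 5 TCRM infarction arrays lay above the TCRM sham arrays, as for 5.64% of tested probe sets in TCRM cells. All 5 ENDO infarction arrays lay below the ENDO sham arrays, as for 3.67% of tested probe sets in ENDO cells. The ENDO difference of -0.24 did not pass (limma adjusted p = 0.685). The response of TCRM cells minus that of ENDO cells was 1.74 on the log2 scale, and the difference was not tested, because the authors' TCRM contrast had chosen the gene. The highest ENDO infarction array read 6.516 and the lowest ENDO sham array 6.523.

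In groups of 5, 2 of 26 measures had 1 array far from the other 4, where chance gives about 1 in 20. Both were on ENDO infarction array 1. Prdm1 read 6.62 there against 6.31 to 6.36 on the others, a gap of 0.844 of the range. Nkg7 read 8.32 against 7.50 to 7.66, a gap of 0.808 of the range. None of the 4 secreted factors had such an array.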

How the results depend on the processing

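In TCRM cells Tgfb3, Csf1, Angptl2 and Timp2 stayed higher after infarction under each of 29 alternative settings. Every TCRM infarction array lay above every TCRM sham array, so leaving 1 array out could not change that sign. Several other settings leave the difference itself unchanged. As the TCRM contrast chose the genes, this stability is no support for them. In ENDO cells none passed under any setting, with limma adjusted p from 0.369 to 0.989. None was in the authors' ENDO table, so that too was likely in advance. With each array left out the TCRM differences ran from 1.58 to 1.88 (Tgfb3), 2.04 to 2.44 (Csf1), 2.28 to 2.49 (Angptl2) and 0.89 to 1.06 (Timp2). With groups from the source names the Angptl2 difference was 2.02, and the TCRM minus ENDO response was 1.70 for Angptl2 and 1.54 for Csf1. For Nrp1 these were 0.76 (1.36 with groups from the titles) and 0.41 (1.26). With the number as a fixed replicate block the ENDO difference of Tgfb3 was 0.015 in place of -0.10, and no other sign among the 4 genes changed. That fixed block takes the number alone, so it joins infarction and sham arrays, which cannot share an animal. It is no part of the stated design and gave 129 ENDO and 191 TCRM calls. The random block was a different one, of operation and number, and gave 266 and 217.

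The ENDO difference changed sign with array weights for Il4 (-0.048) and Trat1 (0.023), for Trat1 also with source name groups (0.24), and with arrays left out for Nrp1 (-0.04 to 0.29) and Ccl5 (-0.13 to 0.22). Of the 3 genes most similar to each of the 4, between 0 and 3 were kept with group means removed or TCRM arrays alone.

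The background counts were less stable, and the cause was not tested. In place of 257, ENDO cells had 442 calls with all arrays quantile normalized, 0 with the ENDO arrays alone (limma, 2333 at unadjusted p under 0.05), 1529 with array weights, 524 at a threshold of 0.1 and 93 with a weight per population. With arrays left out they had 51 (without ENDO sham 1) to 639 (without ENDO infarction 5), and moved over 1.5 times also without ENDO sham 2 (170) or 3 (117), ENDO infarction 1 (152) or TCRM infarction 2 (151), 3 (162) or 4 (155). In place of 219, TCRM cells had 131 calls with all arrays quantile normalized, 118 with the TCRM arrays alone, 377 with array weights, 0 with source name groups (limma, 2051 at unadjusted p under 0.05), 351 at a threshold of 0.1 and 531 with a weight per population. With arrays left out they had 113 (without TCRM sham 2) to 328 (without ENDO infarction 5), with 127 without TCRM sham 3 or TCRM infarction 1 and 124 without TCRM infarction 2. Signal over background is not known.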
